A study of Mus musculus with 22 samples.

Results

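The comparison described here set Müller glia from aged mice of 1.5 years against Müller glia from young mice of 2 to 3 months, by RNA sequencing. It took 2 aged and 2 young libraries, all of those ages, which are 4 of the 10 RNA libraries and of the 22 libraries in the study. Per the labels, all of these mice were C57BL/6 and carried a green fluorescent protein reporter of Rlbp1, by which the cells were sorted from the retina, so that each library holds cells in which that 1 promoter was active. The other RNA libraries serve here as a further reference: 3 from sorted Müller glia of mice of 2 to 3 months whose eyes were injected with the glutamate receptor agonist NMDA 2 days earlier, and 3 from retinal progenitor cells (RPCs) of embryonic day 12.5. DNA methylation was read by reduced representation bisulfite sequencing (RRBS), which covers CpG-rich fragments, in 3 libraries of each of the 4 kinds of cell. The study's design text calls the aged and the young RNA libraries biological replicates. The edgeR p-values use a spread between replicates that is estimated over all 10 RNA libraries, and they measure nothing wider.

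Müller glia are the radial support cells of the retina. They clear glutamate from synapses and turn it into glutamine, carry potassium and water towards the vitreous and the vessels, supply cones with retinoids and hold the retina together at its limiting membranes. When the retina is injured they raise intermediate filament, cytokine receptor and complement genes, a response called reactive gliosis, and a low-grade form of it is a known feature of ageing glia. In fish, injured Müller glia also divide and replace lost neurons, which mammalian Müller glia rarely do, and the state of these cells at different ages is studied for that reason.

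The aged libraries held 36486072 and 33213893 counts, and the young libraries held 15202738 and 10149390. A count was present for 21445 and 20920 genes in the aged libraries and for 13913 and 14919 in the young ones, against 21863 to 23618 in the NMDA and RPC libraries. Log2 levels correlated at Pearson r 0.987 between the aged libraries and at 0.866 between the young libraries, across genes. The libraries also differed in sex-linked genes. Xist, the RNA that silences an X chromosome in female cells and lies within its antisense partner, stood at 0.767 and 0.0336 CPM (counts scaled to the size of the library) in the aged libraries and at 2699 and 0.477 CPM in the young ones. The Y-linked gene Kdm5d stood at 82.9 and 68.6 CPM in the aged libraries and at 0 and 115 CPM in the young ones, so the pattern was male in both aged libraries and in young replicate 2, and female in young replicate 1.

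Because the 2 young libraries stood apart, changes were tested with both of them and again with each of them left out. A change is called held here only if it passed edgeR's quasi-likelihood test at an adjusted p under 0.05 in all these fits, in the same direction. A fit without a young library holds no spread between young libraries. It assumes that the remaining young library varies like the other groups, so it is no stricter test of that spread. Of 18931 genes tested, 3262 (17.2%) held higher in aged cells and 784 (4.14%) held lower. With both young libraries in the fit and no such demand, 3997 (21.1%) were called higher and 1108 (5.85%) lower. The spread is estimated over all 10 RNA libraries, and with the 4 aged and young libraries alone 322 genes held higher and 19 lower. The higher calls came with 2 measured features of the tables. The first is overlap with other genes: of 3994 genes whose span contains another annotated gene, 1438 (36.0%) held higher and 100 (2.50%) lower, against 942 (10.8%) and 390 (4.46%) of the 8748 genes whose span overlaps no other gene. Genes within another gene held higher for 15.6% and lower for 4.76%, genes with a partial overlap for 11.9% and 5.48%, and genes with no position in the annotation for 17.5% and 3.43%. The second is a level of 0: 1525 of the 3262 genes that held higher, and 443 of the 942 without overlap, were listed at 0 in both young libraries.

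**Figure D1:**
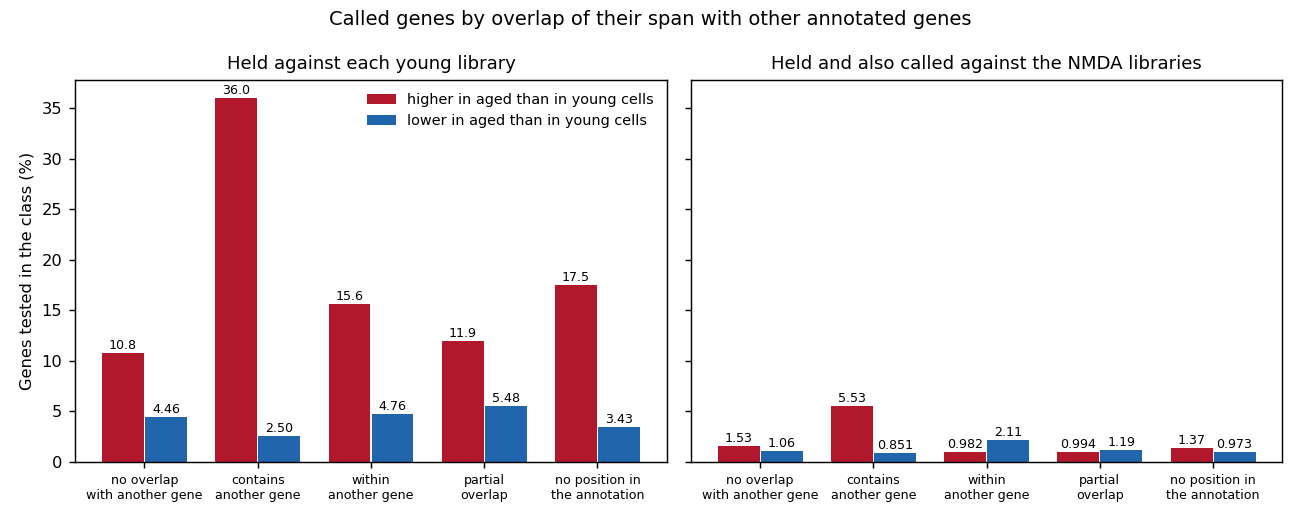
Share of tested genes in each class of span overlap (y axis, percent) that held higher (red) or lower (blue) in aged than in young cells, on the left, and that were also called in the same direction against the NMDA libraries, on the right. Genes that contain another gene stand at 36.0% held higher, against 10.8% of genes without overlap, and the shares on the right lie between 0.851% and 5.53%.

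Widely expressed genes were among those listed at 0. Rps2, a ribosomal protein gene that contains another gene, stood at 47.0 and 46.3 CPM in the aged libraries, at 601, 518 and 507 CPM after NMDA and at 0 in both young libraries, and it was at 0 in the 3 RPC libraries as well. Gnas, the gene of a G protein subunit, which contains another gene, stood at 450 and 440 CPM in the aged libraries, at 557, 478 and 540 CPM after NMDA and at 0 in both young libraries. Fgfr1, a fibroblast growth factor receptor gene that contains others, stood at 343 and 414 CPM in the aged libraries and at 0 in both young ones. Of 168 genes at 0 in both young libraries with a mean of at least 8 CPM in aged cells, 125 had an NMDA mean within 2-fold of the aged mean, 104 had an RPC mean under 1 CPM, and 137 contained another gene while 20 overlapped none. Whether these zeros are levels in the young cells or come from how the libraries were counted was not tested. No fold is therefore given for a gene at 0, and genes that overlap another are marked where they are named.

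The NMDA libraries come from mice of the young age, so a change that also separates the aged from the NMDA libraries does not rest on the young libraries alone. They too differed in sex-linked genes, with Xist at 5.46, 2263 and 2109 CPM and Kdm5d at 65.9, 0.0594 and 0 CPM. The pattern was thus male in NMDA replicate 1 and female in replicates 2 and 3, and the part of sex in these calls was not tested. Of the genes that held, 423 (2.23% of those tested) were also called higher against the NMDA libraries and 209 (1.10%) lower. Without any span overlap they were 134 higher (1.53% of 8748) and 93 lower (1.06%). Genes that contain another gave 221 higher (5.53%) and 34 lower (0.851%). The shares were 0.982% higher and 2.11% lower within another gene, 0.994% and 1.19% with a partial overlap, and 1.37% and 0.973% with no position. This second comparison shares the aged libraries with the first, so it is no independent repeat, and NMDA itself changes many genes.

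The 10 genes without overlap that stood highest in aged over young cells were Lifr, Amer2, Bfar, Rtel1, Zfp874b, Manf, Smg8, Nxph1, Mrpl15 and Sort1. In 9 of them both young libraries were listed at 0. Whether these zeros come from how the libraries were counted was not tested, also for genes without overlap. Lifr, the receptor for leukaemia inhibitory factor, a cytokine that retinal glia use after injury, stood at 146 and 132 CPM in the aged libraries, at 119, 126 and 137 CPM after NMDA and at 0 in both young ones. Manf, a secreted factor induced by stress of the endoplasmic reticulum, stood at 29.9 and 31.3 CPM in the aged libraries, at 57.1, 76.9 and 56.8 CPM after NMDA and at 0 in both young ones. Sort1, a sorting receptor of the Golgi, stood at 413 and 410 CPM in the aged libraries and at 0 and 5.63 CPM in the young ones. It stood at 254, 254 and 269 CPM after NMDA. The young libraries were far below both other groups. Of the 10, Nxph1 was also called higher in aged than in NMDA libraries and Manf lower (log2 -1.06, edgeR adjusted p = 0.0132).

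Nxph1, which encodes a secreted ligand of neurexins, stood at 22.6 and 19.4 CPM in the aged libraries, at 3.16, 2.26 and 4.09 CPM after NMDA and at 0 in both young libraries. Cd36, a receptor for fatty acids and oxidised lipoproteins, stood at 46.7 and 66.8 CPM in the aged libraries, at 8.49, 14.0 and 13.4 CPM after NMDA and at 6.13 and 4.10 CPM in the young libraries. The aged libraries lay above every NMDA library for both genes. Separation from the young libraries was a condition for the genes named by rank, here and below. The call against NMDA also favours separation from those libraries, so neither is a further result. Cd36 rose 11.0-fold over young cells (log2 3.46 ± 0.41, edgeR adjusted p = 0.000556), and its log2 change was 3.80 without young replicate 1 and 3.21 without young replicate 2. Against the NMDA libraries its log2 change was 2.24.

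Perp, a membrane protein of desmosomes and a target of p53, stood at 16.9 and 16.9 CPM in the aged libraries, at 4.35, 7.18 and 5.92 CPM after NMDA and at 2.80 and 2.77 CPM in the young libraries. Abi3bp, an extracellular matrix protein gene, stood at 113 and 117 CPM in the aged libraries, at 44.3, 31.2 and 36.8 CPM after NMDA and at 24.2 and 41.4 CPM in the young libraries. Both genes were selected for separation from the young libraries and a call against NMDA, and their aged values lay above all NMDA values. Perp rose 6.04-fold (log2 2.60 ± 0.44, edgeR adjusted p = 0.00342) and Abi3bp 3.52-fold (log2 1.81 ± 0.27, edgeR adjusted p = 0.00165). Ctf1, which encodes cardiotrophin, a cytokine that signals through the product of Lifr, stood at 18.9 and 14.1 CPM in the aged libraries, at 6.78, 5.17 and 5.92 CPM after NMDA and at 6.45 and 3.91 CPM in the young ones (log2 1.67 ± 0.42, edgeR adjusted p = 0.0186). Tspan33, a tetraspanin gene, stood at 32.4 and 31.3 CPM in the aged libraries, at 15.9, 13.4 and 15.3 CPM after NMDA and at 9.0 and 10.6 CPM in the young ones.

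A second set of higher genes was also intermediate after NMDA, as Cd36 and Perp were. Phlpp1, a phosphatase that acts on the kinase Akt, stood at 776 and 818 CPM in the aged libraries, at 440, 310 and 445 CPM after NMDA and at 168 and 191 CPM in the young libraries (log2 2.15 ± 0.18, edgeR adjusted p = 6.33e-05). Sema5a, an axon guidance gene, stood at 836 and 939 CPM in the aged libraries, at 645, 522 and 672 CPM after NMDA and at 102 and 103 CPM in the young ones. Rxra, the gene of a nuclear receptor that partners retinoid, thyroid and lipid receptors, stood at 161 and 180 CPM in the aged libraries, at 98.4, 98.8 and 102 CPM after NMDA and at 4.82 and 4.29 CPM in the young ones. Lmtk2, a membrane-bound kinase gene, stood at 208 and 218 CPM in the aged libraries, at 127, 98.9 and 128 CPM after NMDA and at 9.45 and 14.8 CPM in the young ones. The aged libraries were the highest in all 4 genes, but the size of the change depended on the comparison. Against the NMDA libraries the log2 change was 1.00 for Phlpp1, 0.53 for Sema5a, 0.77 for Rxra and 0.85 for Lmtk2, while against young cells it was 3.11 for Sema5a, 5.22 for Rxra and 4.14 for Lmtk2. In RPCs the mean level was 14.4 CPM for Sema5a, 2.49 CPM for Rxra and 2.75 CPM for Lmtk2.

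**Figure D2:**
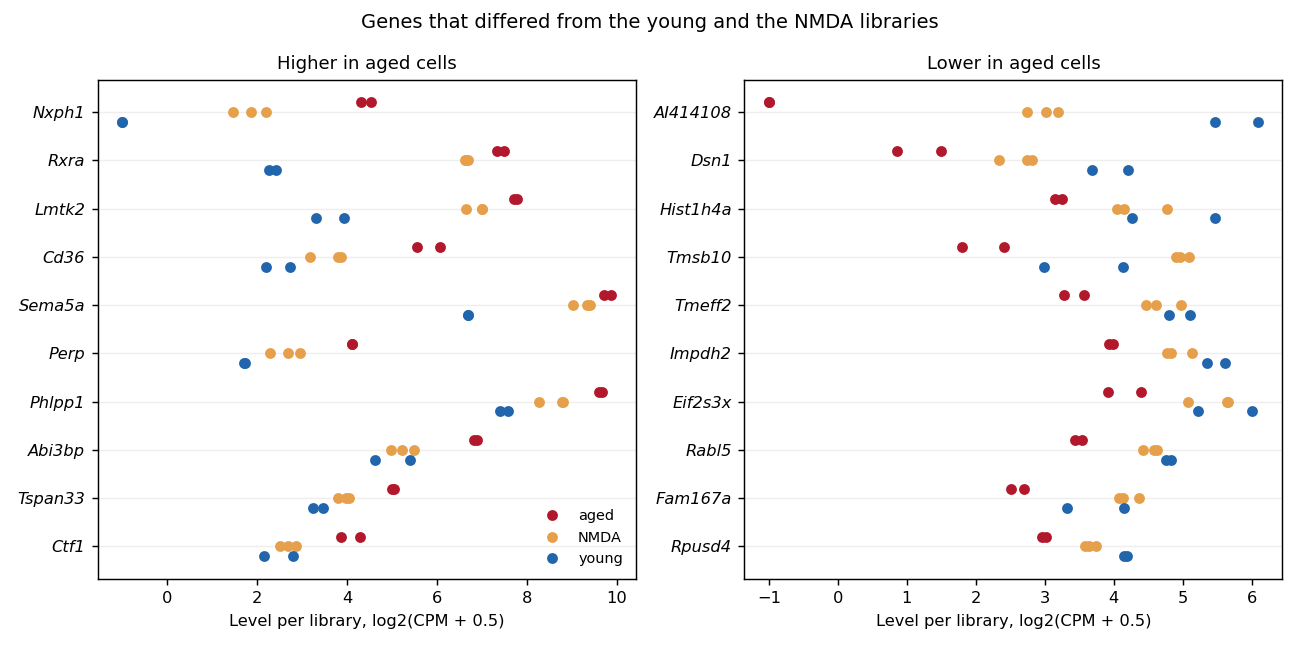
Level of each gene in each library (x axis, log2 of CPM plus 0.5) for the 10 highest (left) and 10 lowest (right) changes among genes without span overlap that differed from young and from NMDA libraries, with aged libraries in red, NMDA in orange and young in blue. Abi3bp and Ctf1 show NMDA and young libraries near each other, and Cd36 and Perp show the NMDA libraries between the young and the aged ones. Rxra, Lmtk2 and Sema5a show NMDA libraries nearer the aged ones.

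Further genes called higher against both references were chosen after their values were seen. Maob, which encodes monoamine oxidase B, an enzyme of glia that breaks down amines, stood at 46.1 and 40.9 CPM in the aged libraries, at 19.9, 15.7 and 21.8 CPM after NMDA and at 13.5 and 13.9 CPM in the young ones (log2 1.66 ± 0.24, edgeR adjusted p = 0.00143). Scn7a, a sodium channel gene expressed in glia, stood at 355 and 330 CPM in the aged libraries, at 87.1, 67.3 and 108 CPM after NMDA and at 144 and 118 CPM in the young ones (log2 1.39 ± 0.21, edgeR adjusted p = 0.00177). Both lay above every other Müller library. The NMDA values lay above both young values for Maob and below both for Scn7a. Maob is on the X chromosome and was not higher in the female-pattern young library than in the other young library.

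Several of these genes act at the cell surface or in the matrix around it. On the fixed matrix list, however, 1 of 17 members without overlap held higher and 1 lower. On the adhesion list 2 of 14 held higher and 1 lower. Among all genes without overlap 10.8% held higher and 4.46% lower. Fbn1, the gene of fibrillin, a component of microfibrils, stood at 60.7 and 58.4 CPM in the aged libraries and at 33.1 and 12.5 CPM in the young ones (log2 1.38 ± 0.36, edgeR adjusted p = 0.0230, with a log2 change of 2.26 without young replicate 1 and 0.85 without young replicate 2). Olfml2a, a secreted olfactomedin-like protein gene, stood at 49.1 and 43.4 CPM in the aged libraries and at 19.5 and 18.5 CPM in the young ones. Drp2, a partner of the dystroglycan complex, stood at 66.0 and 86.6 CPM in the aged libraries and at 30.2 and 40.4 CPM in the young ones. Cav2, a caveolar protein gene, stood at 222 and 199 CPM in the aged libraries and at 124 and 130 CPM in the young ones. Emp2, a membrane protein gene, stood at 101 and 93.4 against 59.6 and 46.1 CPM. Fat1, a giant cadherin, stood at 433 and 427 CPM in the aged libraries and at 217 and 217 CPM in the young ones. In all 6 the aged values exceeded both young values and all 3 NMDA values, and the genes were chosen after these values were seen.

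The lowest changes without overlap were led by AI414108, listed at 0 in both aged libraries and at 43.7 and 67.5 CPM in the young ones, with 8.62, 6.17 and 7.58 CPM after NMDA. Dsn1, a kinetochore gene, stood at 1.32 and 2.32 CPM in the aged libraries, at 6.19, 6.53 and 4.56 CPM after NMDA and at 12.4 and 17.9 CPM in the young ones, an 8.31-fold fall (log2 -3.06 ± 0.36, edgeR adjusted p = 0.000487). Both genes were selected for separation from the young libraries, and each aged value also lay below all NMDA values. Pcdh20, a protocadherin gene, stood at 2.94 and 2.62 CPM in the aged libraries and at 15.2 and 14.2 CPM in the young ones. Tmprss5, a membrane serine protease gene, stood at 10.3 and 8.33 against 48.1 and 34.6 CPM. Scarna2, a small nuclear RNA of Cajal bodies, stood at 44.9 and 37.2 CPM in the aged libraries and at 187 and 149 CPM in the young ones. Mgst3, a glutathione transferase, stood at 5.09 and 3.19 CPM in the aged libraries and at 19.4 and 12.1 CPM in the young ones. Rtkn2, which encodes a rhotekin family protein, stood at 4.60 and 2.99 against 17.3 and 9.35 CPM. None of these 5 was also called lower against the NMDA libraries, where the mean was 3.84 CPM for Pcdh20, 2.61 CPM for Tmprss5, 41.5 CPM for Scarna2, 7.92 CPM for Mgst3 and 4.17 CPM for Rtkn2.

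Further genes fell against both references by smaller amounts than AI414108 and Dsn1. Impdh2, the rate-limiting enzyme of guanine nucleotide synthesis, stood at 14.8 and 15.4 CPM in the aged libraries, at 34.6, 27.9 and 26.8 CPM after NMDA and at 48.3 and 40.4 CPM in the young ones (log2 -1.55 ± 0.16, edgeR adjusted p = 0.000285). Tmeff2, a transmembrane protein with follistatin-like domains, stood at 9.20 and 11.4 CPM in the aged libraries, at 24.0, 30.9 and 21.5 CPM after NMDA and at 27.3 and 33.8 CPM in the young ones. Rabl5, a small GTPase of ciliary transport, stood at 10.4 and 11.1 CPM in the aged libraries, at 21.0, 23.5 and 24.1 CPM after NMDA and at 26.5 and 27.9 CPM in the young ones. In all 3 the aged libraries lay below the other Müller libraries. NMDA and young libraries were of like size for Tmeff2 and Rabl5, while for Impdh2 the NMDA libraries lay between the aged and the young ones. Rpusd4, which modifies mitochondrial ribosomal RNA, fell by 1.23 ± 0.23 and Fam167a by 1.26 ± 0.28 on the log2 scale, with a value of -0.75 for Fam167a without young replicate 1. Tmsb10, an actin-binding thymosin, stood at 4.79 and 2.99 CPM in the aged libraries and at 17.1 and 7.44 CPM in the young ones, and its log2 change of -1.66 was -0.92 without young replicate 1. Eif2s3x, a translation factor gene that escapes X inactivation, stood at 20.5 and 14.6 CPM in the aged libraries and at 63.4 and 36.7 CPM in the young ones. Its higher young value is that of the female-pattern library, and the male-pattern young library was still above both aged ones.

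Histone genes, a group chosen after the values were seen, were among both the lower and the higher genes. Of 67 replication-dependent histone genes tested, 18 held lower and 6 held higher, against 4.14% and 17.2% of all genes tested, with a group total of 1280 and 1254 CPM in the aged libraries, 957, 1037 and 955 CPM after NMDA and 1805 and 1834 CPM in the young ones. Hist1h3d stood at 3.71 and 4.77 CPM in the aged libraries and at 11.7 and 30.9 CPM in the young ones (log2 -2.32 ± 0.39, and -1.46 without young replicate 2). Hist1h4a stood at 8.37 and 9.03 CPM in the aged libraries, at 17.2, 26.7 and 16.0 CPM after NMDA and at 43.9 and 18.6 CPM in the young ones (log2 -1.85 ± 0.38, and -1.09 without young replicate 1). Hist2h3c1 went the other way, at 19.4 and 25.7 CPM in the aged libraries, 0.856, 0.891 and 0.948 CPM after NMDA and 7.76 and 7.15 CPM in the young ones. The copies of each histone are nearly identical and their messages mostly lack poly(A) tails, so the assignment of reads to a copy and the capture of these RNAs are uncertain.

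Müller glia genes gave 1 member of 22 that held, lower in aged cells, where 17.2% of all genes tested held higher and 4.14% lower. Over these genes the total was 64803 and 65055 CPM in the aged libraries and 70534 and 59545 CPM in the young ones, with 24249 to 32231 CPM after NMDA. The list's median difference in log2 level was -0.02, against 0.23 over all genes tested. Glul, glutamine synthetase, whose span overlaps another gene in part, stood at 28230 and 29467 CPM in the aged libraries and at 33361 and 25830 CPM in the young ones. Kcnj10, the potassium channel of Müller end feet, stood at 1215 and 1301 CPM in the aged libraries and at 1041 and 976 CPM in the young ones. Aqp4, the water channel beside it, whose span also overlaps another in part, stood at 2494 and 2464 against 1467 and 1620 CPM. Neither passed the test (edgeR adjusted p = 0.260 for Kcnj10 and 0.201 for Aqp4), although the aged values of both lay above the young ones. The member that held lower was Id3, a target of bone morphogenetic protein signalling, at 66.7 and 77.6 CPM in the aged libraries and 120 and 125 CPM in the young ones (log2 -0.76 ± 0.11, edgeR adjusted p = 0.00152). Id3 stood lower still after NMDA, at a mean of 52.7 CPM.

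Counts of list members without overlap are to be read against the 10.8% higher and 4.46% lower among all such genes. Of 17 genes of the reactive response without overlap, 4 held, all higher, and over all 30 members the median difference in log2 level was 0.43. The 4 were Osmr, Hspb1, Steap4 and Lifr. Osmr, the oncostatin M receptor, stood at 171 and 189 CPM in the aged libraries and at 103 and 103 CPM in the young ones, against 483 to 544 CPM after NMDA. Stat3, which carries the signal of these receptors and overlaps another gene in part, stood at 169 and 193 CPM in the aged libraries and at 114 and 109 CPM in the young ones, against 376 to 408 CPM after NMDA. The heat shock gene Hspb1 stood at 6.50 and 5.04 CPM in the aged libraries and the metalloreductase gene Steap4 at 6.35 and 9.33 CPM, and both were listed at 0 in the young libraries. Gfap, the intermediate filament that defines gliosis, stood at 50.3 and 77.6 CPM in the aged libraries and at 43.6 and 17.3 CPM in the young ones, against 898 to 1237 CPM after NMDA. Its aged values lay above both young values and it did not pass the test (edgeR adjusted p = 0.0853), and its log2 change of 1.06 was 1.90 without young replicate 1 and 0.55 without young replicate 2. S1pr3, a sphingosine phosphate receptor gene with a partial overlap, was the member that was highest in aged cells over both references, at 639 and 715 CPM in the aged libraries, a mean of 248 CPM after NMDA and 42.0 and 98.7 CPM in the young ones.

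Complement genes held higher for 2 of 13 members without overlap, C4b and Serping1, and for C3, which contains another gene. C4b, which marks activation of the classical pathway and rises in ageing glia of the brain, stood at 181 and 280 CPM in the aged libraries and at 111 and 55.3 CPM in the young ones (2.76-fold, log2 1.47 ± 0.41, edgeR adjusted p = 0.0282). Its log2 change was 2.07 without young replicate 1 and 1.05 without young replicate 2. Serping1, the inhibitor of the first complement component, stood at 40.6 and 46.6 CPM in the aged libraries and at 30.4 and 20.3 CPM in the young ones (log2 0.78 ± 0.21, edgeR adjusted p = 0.0269). The groups did not overlap in either gene, and both stood higher after NMDA, at means of 345 and 140 CPM. Ifit3, an interferon-stimulated gene, stood at 161 and 92.7 CPM in the aged libraries and at 65.9 and 70.8 CPM in the young ones, and it was the 1 of 19 interferon-stimulated genes without overlap that held. B2m, the light chain of MHC class I, which lies within another gene, stood at 83.1 and 78.0 CPM in the aged libraries and at 54.9 and 43.8 CPM in the young ones and did not pass (edgeR adjusted p = 0.187).

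Senescence was read from 16 genes without overlap, of which 2 held higher, Gdf15 and Cxcl1. Gdf15, a stress cytokine gene, stood at 0.429 and 0.873 CPM in the aged libraries, and Cxcl1, a chemokine gene, at 2.15 and 0.604 CPM, with both listed at 0 in the young libraries. These are levels near the detection limit. Cdkn1a, the p21 inhibitor of the cell cycle, stood at 3.71 and 2.38 CPM in the aged libraries and at 19.1 and 4.96 CPM in the young ones and did not pass (edgeR adjusted p = 0.171).

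Antioxidant genes of the Nrf2 pathway held higher for 3 of 17 members without overlap, Gclc, Slc7a11 and Hmox1. Gclc, the rate-limiting enzyme of glutathione synthesis, stood at 75.5 and 72.2 CPM in the aged libraries, at 57.1, 50.2 and 55.0 CPM after NMDA and at 33.0 and 31.9 CPM in the young ones (log2 1.19 ± 0.12, edgeR adjusted p = 0.000207). It lay above every other Müller library and was also called against NMDA. Hmox1, haem oxygenase, stood at 3.87 and 6.98 CPM in the aged libraries, at a mean of 341 CPM after NMDA and at 0 in both young libraries. Of 20 heat shock genes 4 held higher and 2 lower, against 17.2% and 4.14% of all genes tested. Those higher were Hspb1, the partly overlapping Hspb8, and Dnaja1 and Chordc1, which contain another gene. Dnaja1 stood at 87.1 and 84.2 CPM in the aged libraries, a mean of 98.3 CPM after NMDA and 2.09 and 1.34 CPM in the young ones. Those lower, both without overlap, were the chaperone gene Hspa1b, at 20.1 and 27.2 CPM in the aged libraries and 63.9 and 47.7 CPM in the young ones (log2 -1.24 ± 0.29, edgeR adjusted p = 0.0135), and its partner Dnajb1, at 76.4 and 70.1 against 205 and 125 CPM, whose log2 change of -1.17 was -0.76 without young replicate 1. Nr4a1, an immediate early transcription factor gene, stood at 52.1 and 41.3 CPM in the aged libraries and at 260 and 110 CPM in the young ones, and its log2 change of -1.99 was -1.22 without young replicate 1. The total over 21 immediate early and dissociation genes was 5965 and 4638 CPM in the aged libraries and 11532 and 4951 CPM in the young ones, and its part in these 3 falls was not tested. In the unfolded protein response Dnajb9, a chaperone of the endoplasmic reticulum, stood at 96.5 and 95.4 CPM in the aged libraries, at 76.2, 66.1 and 71.0 CPM after NMDA and at 59.0 and 56.2 CPM in the young ones (log2 0.74 ± 0.13, edgeR adjusted p = 0.00339).

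The cholesterol list gave 4 members of 21 that held, all lower in aged cells, against 4.14% of all genes tested, and the list's median difference in log2 level was -0.19, against 0.23 over all genes. Pmvk, a kinase of the mevalonate pathway, stood at 16.8 and 13.9 CPM in the aged libraries and at 30.8 and 29.4 CPM in the young ones (log2 -0.97 ± 0.24, edgeR adjusted p = 0.0181). Mvd, the next enzyme of that pathway, and Fdft1, squalene synthase, both contain another gene. Mvd stood at 9.82 and 13.1 CPM in the aged libraries and at 35.4 and 22.3 CPM in the young ones. Fdft1 stood at 50.3 and 48.4 CPM in the aged libraries and at 82.1 and 77.2 CPM in the young ones. None of the members that held was also called lower against NMDA. The total over the list was 2008 and 1904 CPM in the aged libraries, 957 to 985 CPM after NMDA and 2065 and 2283 CPM in the young ones. Genes of fatty acid handling held higher for 9 of 29, against 17.2% of all genes tested, but 8 of these overlap another gene, and Cd36 was the one that does not. Fads1, a fatty acid desaturase, and Acsl3, which activates fatty acids, contain another gene and were also called against NMDA, with Acsl3 at 2944 and 3030 CPM in the aged libraries, a mean of 1851 CPM after NMDA and 246 and 332 CPM in the young ones.

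Genes of energy metabolism held in both directions. Of 20 respiratory chain genes without overlap 4 held higher and 2 lower, and the median difference in log2 level of all 32 was -0.08. Uqcrc1, a subunit of complex III, stood at 92.7 and 78.2 CPM in the aged libraries and at 30.2 and 21.9 CPM in the young ones, yet at a mean of 178 CPM after NMDA. Genes that fell against both references, chosen after their values were seen, included Atp5g1 and Atp5g3, which encode the ring subunit of ATP synthase, and the Krebs cycle genes Mdh2 and Idh3a. Atp5g3 stood at 29.7 and 27.4 CPM in the aged libraries, at 55.2, 52.4 and 52.7 CPM after NMDA and at 49.6 and 50.3 CPM in the young ones (log2 -0.81 ± 0.14, edgeR adjusted p = 0.00412). Mdh2 stood at 72.5 and 72.5 CPM in the aged libraries, at 127, 148 and 125 CPM after NMDA and at 113 and 94.6 CPM in the young ones. Pgk1, the X-linked glycolytic kinase, stood at 45.4 and 42.0 CPM in the aged libraries, at 79.5, 76.7 and 73.7 CPM after NMDA and at 118 and 86.0 CPM in the young ones (log2 -1.22 ± 0.16, edgeR adjusted p = 0.000943). The aged libraries were the lowest in all 3 genes. Of 16 glycolysis genes without overlap Pgk1 was the only one that held.

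Over whole lists, genes of protein synthesis and breakdown held at shares near the 17.2% higher and 4.14% lower of all genes tested. Of 36 ribosomal protein genes 5 held higher and 1 lower. Without overlap 1 of 20 held each way, Rpl38 higher and Rpl11 lower. Of 25 proteasome genes 5 held higher and 1 lower. Of the 18 without overlap Psmb1 and Psmd11 held higher and Psma5 lower. Psmb1, a core subunit gene, stood at 42.1 and 35.3 CPM in the aged libraries, at 81.4, 99.9 and 77.5 CPM after NMDA and at 27.2 and 17.4 CPM in the young ones. The members that held higher were higher still after NMDA, and the 2 that held lower were also called lower against NMDA. Rpl11, a ribosomal protein of the large subunit, stood at 25.5 and 24.4 CPM in the aged libraries, at 79.5, 65.4 and 71.7 CPM after NMDA and at 52.1 and 44.3 CPM in the young ones (log2 -0.95 ± 0.13, edgeR adjusted p = 0.00123). Psma5, a subunit of the proteasome core, stood at 13.6 and 13.5 CPM in the aged libraries, at 29.0, 35.9 and 27.8 CPM after NMDA and at 22.4 and 32.6 CPM in the young ones (log2 -1.02 ± 0.21). Mcoln1, the calcium channel of lysosomes, stood at 35.0 and 32.3 CPM in the aged libraries and at 49.6 and 64.4 CPM in the young ones (log2 -0.76 ± 0.18, edgeR adjusted p = 0.0149). The aged libraries were below all other Müller libraries in each of the 3. The total over 36 ribosomal protein genes was 1806 and 1634 CPM in the aged libraries and 2343 and 1391 CPM in the young ones, so the groups overlapped.

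Among signalling genes, Smads of the bone morphogenetic protein branch parted. Smad1 stood at 31.3 and 29.0 CPM in the aged libraries, at 46.1, 53.4 and 39.8 CPM after NMDA and at 52.4 and 54.8 CPM in the young ones (log2 -0.83 ± 0.17, edgeR adjusted p = 0.00704). Smad5, which serves the same receptors, stood at 210 and 211 CPM in the aged libraries, at 158, 137 and 151 CPM after NMDA and at 115 and 156 CPM in the young ones (log2 0.63 ± 0.14, edgeR adjusted p = 0.0120). Both were called against both references, in opposite directions. Of 17 genes of the TGF-beta and BMP pathway without overlap 4 held higher and 2, Smad1 and Id3, held lower. Fzd1, a Wnt receptor gene, stood at 29.1 and 32.3 CPM in the aged libraries, at 19, 16.5 and 14.6 CPM after NMDA and at 13.4 and 16.3 CPM in the young ones (log2 1.05 ± 0.19, edgeR adjusted p = 0.00419). In the insulin pathway Pik3r1, the regulatory subunit of phosphoinositide kinase, stood at a mean of 441 CPM in the aged libraries and at 274 and 198 CPM in the young ones, and Rictor, of the second mTOR complex, at 224 and 205 against 161 and 139 CPM. Both were also above all NMDA libraries. Smad1, Smad5, Pik3r1 and Rictor were chosen after their values were seen. Of 17 Wnt genes without overlap 1 held higher and 1 lower. Of 17 insulin and nutrient genes without overlap 2 held higher and 0 lower. These shares are to be read against the 10.8% higher and 4.46% lower of all genes without overlap.

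**Figure D3:**
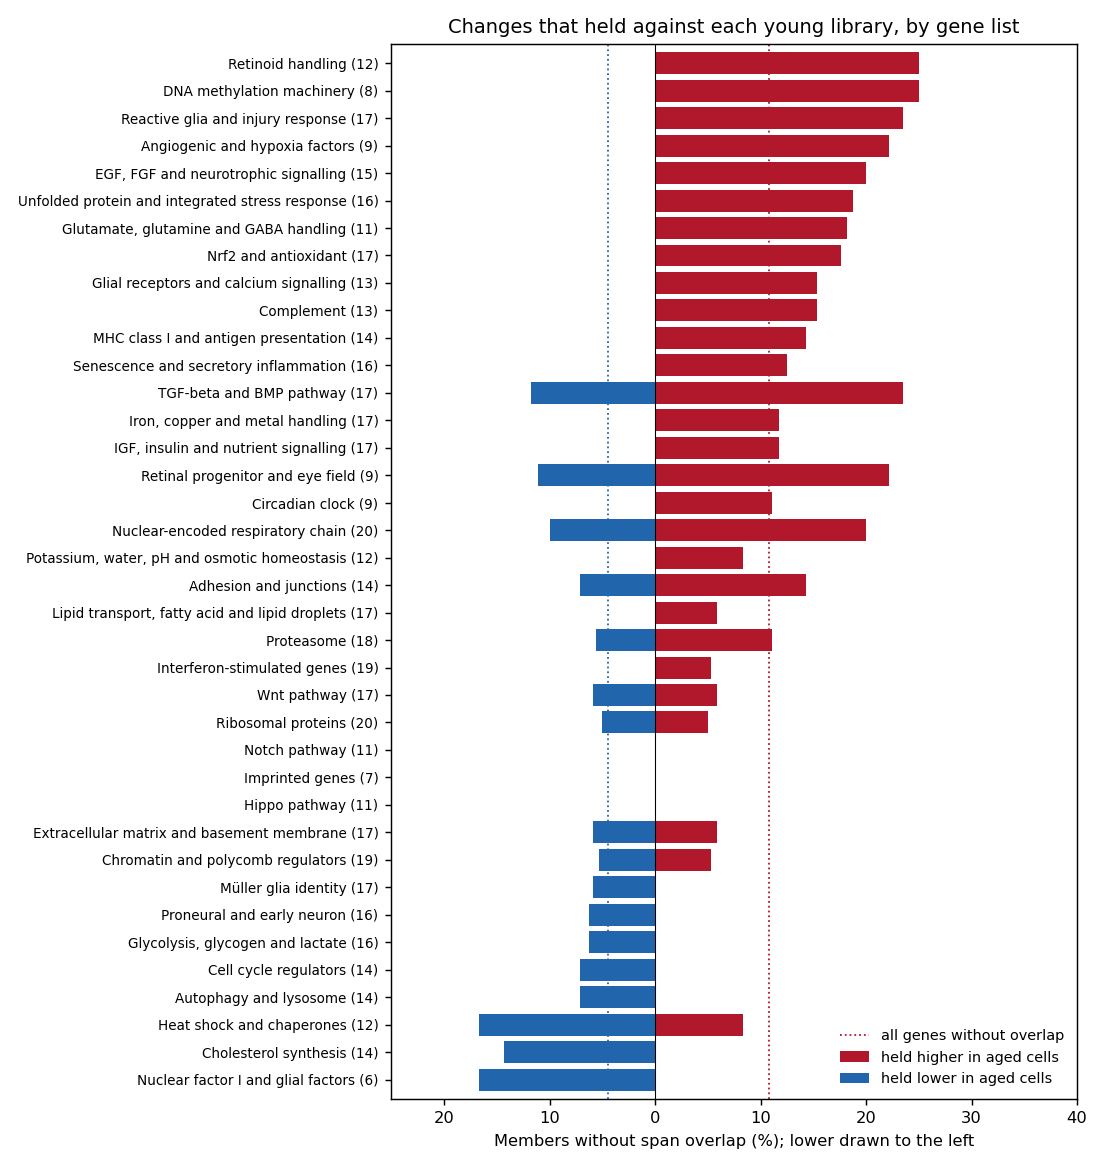
For each list, the share of its tested members without span overlap (their number in brackets) that held higher (red, right) or lower (blue, left) in aged cells, with dotted lines at the shares over all genes without overlap, 10.8% higher and 4.46% lower. Most lists lie within a few genes of these lines, and Müller glia identity and cholesterol synthesis are among the lists with no member that held higher.

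Of 9 progenitor and eye field genes without overlap 2 held higher and 1 lower, of 14 cell cycle genes 1 held lower, and of 12 retinoid genes 3 held higher, Crabp2, Rdh11 and Cyp26a1. Crabp2 was near the detection limit, at 1.01 and 0.839 CPM in the aged libraries and at 0 in both young ones. Six6, an eye-field transcription factor gene, stood at 173 and 197 CPM in the aged libraries, at 123, 89.3 and 117 CPM after NMDA and at 76.4 and 81.3 CPM in the young ones, above all other Müller libraries. Lhx2, also of the eye field, contains another gene and stood at 295 and 321 CPM in the aged libraries, at a mean of 162 CPM after NMDA and at 3.59 and 2.86 CPM in the young ones, with 1.15 CPM in RPCs, cells in which it is known to be active. Mcm2, part of the replicative helicase, stood at 12.7 and 11.1 CPM in the aged libraries, at 25.7, 30.1 and 19 CPM after NMDA and at 26.0 and 25.2 CPM in the young ones (log2 -1.10 ± 0.19, edgeR adjusted p = 0.00371). Mki67, a marker of dividing cells, stood at 0.215 and 0 CPM in the aged libraries and at 0.130 and 1.43 CPM in the young ones, against a mean of 890 CPM in RPCs. Tubb3, the neuronal tubulin gene, stood at 1.96 and 2.52 CPM in the aged libraries and at 6.19 and 9.06 CPM in the young ones. Cyp26a1, which degrades retinoic acid, stood at 56.0 and 46.3 CPM in the aged libraries, at 36.7, 33.1 and 40.2 CPM after NMDA and at 33.0 and 33.6 CPM in the young ones (log2 0.62 ± 0.15, edgeR adjusted p = 0.0181).

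Markers of other cells were present at both ages. In bulk libraries fewer cells of a type and less RNA per cell cannot be told apart. The total over 24 rod and cone genes was 12220 and 8169 CPM in the aged libraries and 15793 and 10400 CPM in the young ones. For 19 microglia and macrophage genes the totals were 192 and 219 CPM in the aged libraries and 30.4 and 161 CPM in the young ones. Young replicate 2 was near the aged libraries and young replicate 1 below them. Csf1r, a growth factor receptor gene that contains others, stood at 21.6 and 27.1 CPM in the aged libraries and at 0 and 7.06 CPM in the young ones. Cx3cr1, a chemokine receptor gene with a partial overlap, stood at 16.3 and 17.4 against 0 and 23.5 CPM. P2ry12, a purine receptor gene within another, stood at 9.29 and 11.9 against 6.26 and 18.7 CPM. For 18 endothelial and mural genes the totals were 4529 and 4512 CPM in the aged libraries and 3864 and 3592 CPM in the young ones. The junction gene Cldn5 stood at 1.20 and 1.34 CPM in the aged libraries and 0 in the young ones. Of 17 members tested 6 held higher, against 17.2% of all genes tested. Of these 6, 5 were listed at 0 in both young libraries, and 3 overlapped no other gene. The astrocyte sum was 3266 and 3805 CPM in the aged libraries and 530 and 497 CPM in the young ones. Most of it was Slc1a2, a glutamate transporter gene that contains another gene, at 2986 and 3469 CPM in the aged libraries and 307 and 253 CPM in the young ones, while the astrocyte factor Pax2, which also contains other genes, stood at 0.368 and 2.55 CPM in the aged libraries and 0 in the young ones. The part of these markers in the complement, interferon and matrix genes above was not tested.

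**Figure D4:**
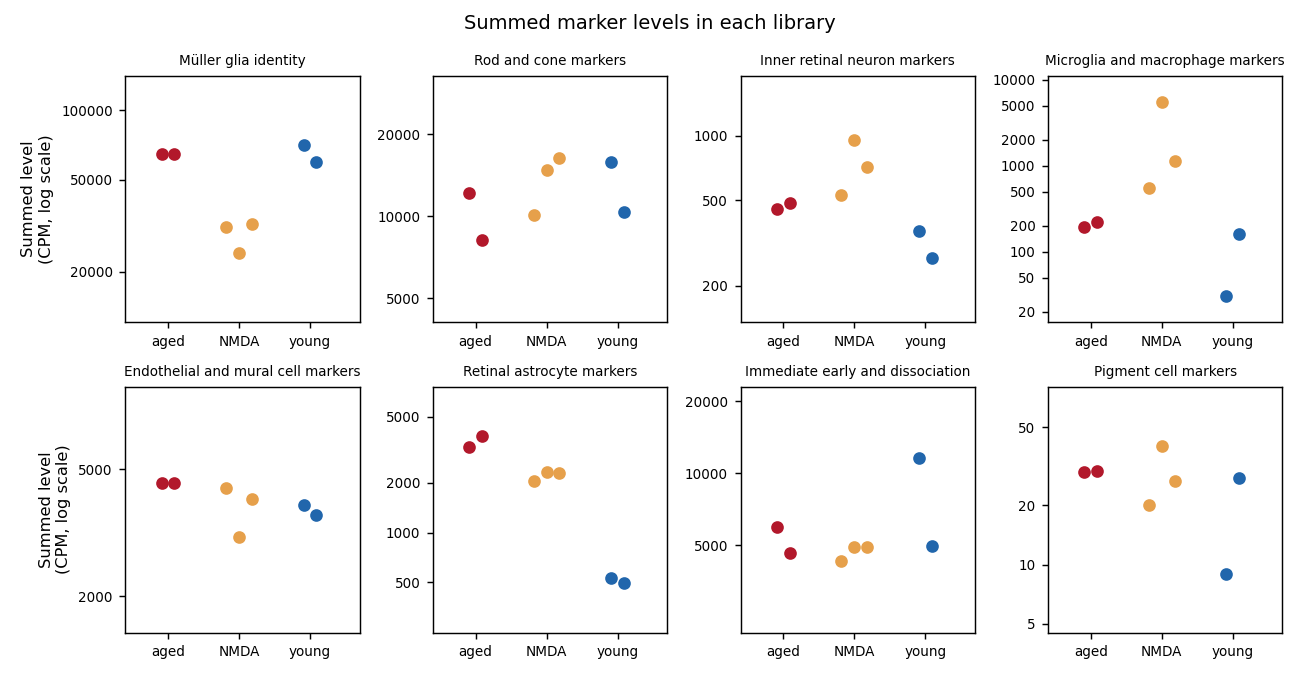
Summed level of marker genes (y axis, CPM on a log scale) in each library, with aged libraries on the left, NMDA in the middle and young on the right. Müller identity genes stand at 64803 and 65055 CPM in aged libraries, within the 59545 to 70534 CPM of the young ones, while astrocyte markers, which are mostly Slc1a2, are higher in aged libraries.

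Methylation near the start sites of these genes was read in other libraries than the RNA. Most promoters shown by RRBS are rich in CpG and little methylated, and 4 of them are printed because their genes changed against both references in RNA and because they hold measured CpGs. They run from 250 bases before to 50 bases after the start site, from RefSeq on GRCm38.p6, on the strand of the gene, with each CpG that RRBS measured in capitals. Lmtk2 lies at chr5:144100111-144100410 on the plus strand, Phlpp1 at chr1:106171619-106171918 on the plus strand, Six6 at chr12:72939632-72939931 on the plus strand and Mcm2 at chr6:88898731-88899030 on the minus strand.
Lmtk2: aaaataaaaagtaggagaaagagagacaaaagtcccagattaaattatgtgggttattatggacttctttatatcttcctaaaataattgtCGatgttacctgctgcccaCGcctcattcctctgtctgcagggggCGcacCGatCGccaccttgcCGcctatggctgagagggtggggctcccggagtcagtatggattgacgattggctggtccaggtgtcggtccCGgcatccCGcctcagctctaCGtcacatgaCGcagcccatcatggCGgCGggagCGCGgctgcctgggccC
Phlpp1: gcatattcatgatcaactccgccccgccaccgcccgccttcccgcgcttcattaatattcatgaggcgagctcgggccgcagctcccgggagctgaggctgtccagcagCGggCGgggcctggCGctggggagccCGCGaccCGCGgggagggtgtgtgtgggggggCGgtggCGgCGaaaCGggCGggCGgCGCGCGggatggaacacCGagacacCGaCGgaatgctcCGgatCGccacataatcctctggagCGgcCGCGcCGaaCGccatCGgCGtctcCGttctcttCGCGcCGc
Six6: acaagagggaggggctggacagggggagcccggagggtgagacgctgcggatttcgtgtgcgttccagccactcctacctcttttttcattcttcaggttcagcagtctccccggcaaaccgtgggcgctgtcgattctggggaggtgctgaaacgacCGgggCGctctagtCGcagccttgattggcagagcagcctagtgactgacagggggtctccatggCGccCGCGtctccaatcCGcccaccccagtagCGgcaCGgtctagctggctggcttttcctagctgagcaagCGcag
Mcm2: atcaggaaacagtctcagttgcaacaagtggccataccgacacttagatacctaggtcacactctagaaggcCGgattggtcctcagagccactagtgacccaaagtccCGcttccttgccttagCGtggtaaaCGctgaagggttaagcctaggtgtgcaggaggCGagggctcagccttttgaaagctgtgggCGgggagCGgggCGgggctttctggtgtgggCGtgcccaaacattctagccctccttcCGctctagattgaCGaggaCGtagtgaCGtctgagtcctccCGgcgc
Lmtk2 had 17 CpGs in this window, Phlpp1 42, Six6 20 and Mcm2 16, against a median of 19 over the promoters of 6036 tested genes without overlap. The GC box GGGCGG, searched on both strands, is in the windows of Phlpp1, Six6 and Mcm2. It is in 35.9% of all 27025 promoters of this length and in 62.5% of those of the 6036 tested genes. The letters TATAAA, those of a TATA box, were also searched on both strands. In the window of Lmtk2 they are only on the strand opposite the gene, printed as tttata, and far from the start site. On either strand they are in 14.2% of all promoters and in 8.13% of those of the tested genes.

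At 22 measured positions of the Lmtk2 window, where the 2 strands of a CpG count apart, the mean methylation was 0.624%, 0.409% and 0.058% in the aged libraries and 3.45%, 4.88% and 0.575% in the young ones. At 26 positions of the Mcm2 window it was 0.254%, 0.033% and 0% in the aged libraries and 2.37%, 4.46% and 2.89% in the young ones. Six6 gave 0%, 0.359% and 0.336% in the aged libraries and 0.799%, 3.95% and 1.91% in the young ones. The aged libraries lay below all young ones in the windows of Mcm2 and Six6, of which RNA fell for Mcm2 and rose for Six6, while in the Lmtk2 window young replicate 3 lay below aged replicate 1. At 45 positions of the Phlpp1 window, with a median of 24 reads, aged replicate 3 stood apart at 11.3%, against 0.202% and 0% in the other aged libraries and 2.63%, 3.30% and 2.18% in the young ones.

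The same held over all genes measured within 1000 bp of the start site. Of 2475 genes, 2214 (89.5%) had all 3 aged libraries below all 3 young ones and 4 (0.162%) had them all above, with medians of 0.438% in aged and 3.62% in young libraries. Among the 229 that held higher in RNA 192 (83.8%) had all aged libraries lower, and among the 122 that held lower 113 (92.6%) did, shares near that of all genes. In the same 2 classes 1 gene each, 0.437% and 0.820%, had all aged libraries higher. With 3 libraries of each age the exact permutation test (two-sided) cannot go below p = 0.1, so no single start site can pass. The low values in every class of gene are a difference between the sets of RRBS libraries, and whether it lies in the cells or in the conversion of the DNA was not tested.

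Purb, which encodes a nucleic acid binding repressor and was chosen after its values were seen, was 1 of the 4 genes with higher methylation in every aged library. Over 43 positions it stood at 17.3%, 12% and 9.47% in the aged libraries and at 3.81%, 2.61% and 2.16% in the young ones, which is 12.9% ± 4.0 in aged and 2.86% ± 0.852 in young cells (SD, n = 3 each, exact permutation p = 0.1). Its RNA also stood higher, at 391 and 389 CPM in the aged libraries and 177 and 207 CPM in the young ones, and at 17.2, 12.2 and 17.1 CPM after NMDA (log2 1.02 ± 0.17 over young cells, edgeR adjusted p = 0.00328). Chmp2a, of the membrane-cutting ESCRT machinery, was another of the 4, at 56.8% ± 2.20 in aged and 50.2% ± 2.97 in young cells (SD, n = 3 each, exact permutation p = 0.1), with RNA at 55.8 and 61.5 CPM in the aged libraries and 74.6 and 83.1 CPM in the young ones.

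**Figure D5:**
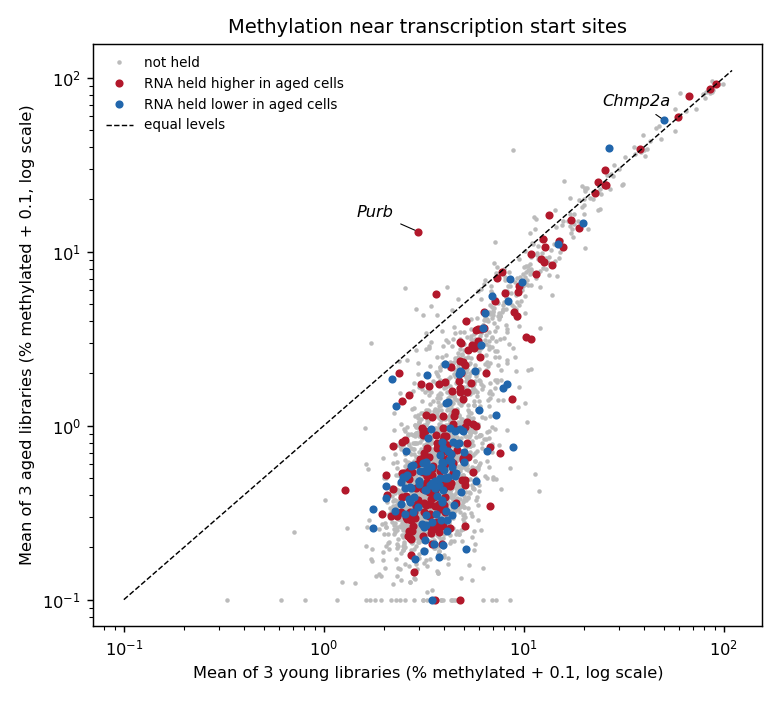
Mean methylation within 1000 bp of the start site of each of 2475 genes, as the mean of 3 aged libraries (y axis) against that of 3 young libraries (x axis), in percent plus 0.1 on log scales, with genes that held higher in RNA in red and lower in blue. Most points lie below the dashed line of equal levels whatever their colour, and Purb lies well above it.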

How the data were processed

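Per the submitters' processing notes, reads were trimmed with Trim Galore 0.4.3 and aligned to mm10 (GRCm38), RNA with HISAT2 2.0.4 and bisulfite reads with Bismark 0.16.3, with methylKit 1.4.0 also named. How reads were counted, on which annotation and with what use of strand, is not given in the sources used here. Whole-number read counts of 44792 genes in 10 RNA libraries were deposited by the authors, as were percent methylation and coverage per position for RRBS. Counts were tested with edgeR 4.0.16 (R 4.3.3; TMM scaling, filterByExpr, quasi-likelihood fit over all 10 libraries, common biological coefficient of variation 0.411, 6 residual degrees of freedom, Benjamini-Hochberg adjustment over 18931 genes). CPM are scaled by TMM, ± beside a log2 change is its standard error, and differences in log2 level use CPM plus 0.5. The test was also run on simulated data, whose outcome is not given and is not used here. Span overlaps come from RefSeq GRCm38.p6, matched for 32097 genes by symbol and 1755 by synonym, with 10940 unmatched.

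Named genes were the 10 highest and 10 lowest held changes with a mean of at least 8 CPM, groups that do not overlap and no span overlap, the same among genes that also differed from NMDA libraries, from each list up to 3 held members by rank of adjusted p, and several markers. Other genes named were chosen after their values were seen. The members and lists were chosen with earlier results of these data known. The 15 mitochondrially encoded genes listed are not in the table. Methylation is the mean percent over positions with at least 10 reads in all 6 libraries and at least 5 positions within 1000 bp of a start site. There were 1732994 to 2532174 positions per library, and the part of coverage in the precision was not tested. The values of some list members are not reported here.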

Additional observations from a re-analysis of the deposited data

How the results depend on the processing

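The number of genes called higher (3997) was 1613 at a mean of at least 5 CPM, 322 with aged and young libraries alone, 2564 for a change of at least 2-fold and 1359 among genes without span overlap, and it ran from 2951 to 7126 when 1 library was left out, the highest without young replicate 2. The number called lower (1108) was 1848 with upper-quartile scaling, 603 with no filter, 1994 with DESeq2 1.42.0, 19 with aged and young libraries alone, 437 with Müller libraries alone, 162 for a change of at least 2-fold and 318 without span overlap, and ran from 356 to 3343 when 1 library was left out. The 3262 genes that held higher were 1542 at 5 CPM, 322 with aged and young libraries alone, 1827 for a 2-fold change, 1083 fitted without overlapping genes and 423 when also called against NMDA. The 784 that held lower were 1372 with upper-quartile scaling, 452 with no filter, 19 with aged and young libraries alone, 417 with Müller libraries alone, 121 for a 2-fold change, 256 without overlap, 296 at 2-fold in every pair of libraries and 209 when also called against NMDA, and 3.5e2 to 378 when 1 aged library was left out. The cause was not tested where an alternative changes neither the samples nor the genes. Upper-quartile scaling lowered all changes by 0.13 (log2) and raised the lower calls.

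Replicate numbers showed no sign of pairing: the deviations of same-numbered libraries correlated at 0.0586 over 11677 genes. With 2 pairs, and genes that are not replicates, this cannot exclude pairing. With the replicate block 2901 genes were called higher and 513 lower, and 2479 held higher and 446 lower. Of 172 results for named genes none with a call changed direction. Not all were tested in every alternative, and a gene called in neither fit was not counted as changed. With aged and young libraries alone 110 lost their call, for a 2-fold change 45, with the block 11, and without an aged replicate 17 and 19. With the aged libraries thinned to 10149390 counts, an alternative chosen after seeing the data as was that against NMDA, 3100 genes held higher and 819 lower. Of 32 named genes with methylation, 28 had all aged libraries lower, and 26 to 29 did under the alternatives. This is near the share over all genes measured, 2214 of 2475 (89.5%), so it is no result about the named genes.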
